A study of Homo sapiens with 16 samples.

Results

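Each microRNA (miRNA) hairpin can release a strand from either of its arms, and miR-21 is described here by both. The members were the 2 array probes named hsa-miR-21-5p and hsa-miR-21-3p, of 2565 miRNA probes in all, and both were found. OE19, an established human esophageal adenocarcinoma (EAC) cell line, was either left without drug for 48 h (control, 8 arrays) or treated with 100 μM telmisartan, a blocker of the angiotensin II type 1 receptor, for the same time (8 arrays). Both groups were grown in the same medium with fetal bovine serum. In each group the labels number the arrays from 1 to 8 and name no batch. Nothing in the labels or methods says whether each array had its own culture, so every p-value reflects only how much these arrays vary, and that variation may be technical. OE19 is 1 cell line, so the values describe that line alone.

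The primary transcript of miR-21 is cut by Drosha in the nucleus to a hairpin and then by Dicer in the cytoplasm to a short duplex. One strand of the duplex, the guide, is loaded into an Argonaute protein and represses mRNAs that pair with its seed, and the other strand, the passenger, is mostly degraded. miR-21-5p is the guide of this hairpin, is abundant in many carcinomas and is known for repressing the tumor suppressor PDCD4. miR-21-3p is the passenger strand. Both arms come from the same transcript.

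The sequences below were taken from RefSeq (GRCh38.p14). The first shows the guide with its seed, bases 2 to 8, in capitals, and the second shows the only other mature miRNA of the table that carries the same seed, miR-590-5p.
hsa-miR-21-5p: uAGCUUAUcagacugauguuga
hsa-miR-590-5p: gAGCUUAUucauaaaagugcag
The guide is 22 bases long and lies at chr17:59841273-59841294 on the plus strand, and miR-590-5p lies at chr7:74191213-74191234 on the plus strand. The hairpin is shown to place the guide within it, with the guide (bases 8 to 29) in capitals.
MIR21 hairpin: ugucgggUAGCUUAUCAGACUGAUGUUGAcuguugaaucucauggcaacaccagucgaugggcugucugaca
It has 72 bases at chr17:59841266-59841337 on the plus strand, and the MIR21 gene lies within the span of VMP1, a protein-coding gene for a membrane protein of autophagy. Of the 2 members, 1 matched a mature sequence in this table, and miR-21-3p is named only.

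Each array gave 1 intensity per probe. A probe counted as detected when its raw intensity lay more than 2 SD of the blank spots above the background of its array. The authors' normalized values, which are linear intensities quantile normalized over the 382 probes detected on all 16 arrays, were used on the log2 scale. Detected probes numbered 454 to 1621 per control array (median 804) and 458 to 1885 per telmisartan array (median 931). Backgrounds lay between 14.9 and 32.5 in the controls and between 19.9 and 33.6 with telmisartan. All 5 epithelial marker miRNAs and all 3 columnar gut marker miRNAs were detected on every array, and of these 8 miR-200a-3p, miR-141-3p and miR-194-5p fell to 0.446, 0.566 and 0.819 of control (adjusted p = 0.00809, 0.00222 and 0.0313, limma), beside 7.33% of all 382 probes that fell. The other 5 did not pass, at 0.762 of control (miR-429) to 1.15-fold (miR-200c-3p). None of the 5 blood cell, 4 muscle and fibroblast, 1 liver and 1 neuron markers was detected on every array. The blood cell marker miR-451a was detected on 14 arrays (median background-subtracted intensity 5.81 where detected) and each of the others on 1 to 5. The summed background-subtracted intensity stayed between 0 and 13.4 on any array within each of these lists. The endothelial marker miR-126-3p was detected on all 16 arrays, with summed intensities of 19.3 to 68.6 in the controls and 37.3 to 77.8 with telmisartan (log2 fold change 0.22, adjusted p = 0.780, limma). Its part in the results on miR-21 was not tested.

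miR-21-5p was among the brightest probes of OE19 cells and did not differ between the groups beyond the spread of the arrays. Its normalized intensity ran from 1465 to 2379 in the controls (median 1825) and from 1747 to 2379 with telmisartan (median 1944), so the groups overlapped over most of their range. By signal it ranked 7th to 17th of the 382 probes on the control arrays and 7th to 13th on the telmisartan arrays. On the log2 scale the level was 10.86 ± 0.25 in the controls and 10.96 ± 0.17 after telmisartan (SD, n = 8 arrays each). That is a 1.08-fold difference with a 95% interval of 0.921 to 1.26 (log2 fold change 0.11, standard error 0.11, adjusted p = 0.624, limma). On these normalized values a fall to below 0.921 of the control level or a rise past 1.26-fold lies outside this interval. On background-subtracted intensities without normalization the log2 fold change was 0.25 (adjusted p = 0.393, limma), and the interval does not hold for that scale.

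The arrays of each group were split by number into sets of 1 to 4 and 5 to 8, a split that the labels do not give. Within these sets of array numbers the normalized levels of the guide also overlapped. Controls 1 to 4 had normalized intensities of 1794, 2379, 1553 and 1856, and telmisartan arrays 1 to 4 had 1856, 2379, 1747 and 1944. Controls 5 to 8 had 1691, 2044, 1465 and 2229, and telmisartan arrays 5 to 8 had 1856, 1944, 1944 and 2379. Several values recur because quantile normalization gives a probe the value of its rank, and miR-21-5p took 10 distinct values over the 16 arrays. On background-subtracted intensities without normalization the sets were less alike. The log2 level was 10.87 ± 0.21 in controls 1 to 4 and 10.84 ± 0.19 in telmisartan arrays 1 to 4, and 10.62 ± 0.38 in controls 5 to 8 and 11.14 ± 0.10 in telmisartan arrays 5 to 8 (SD, n = 4 each), and these differences were not tested by set. The spot of miR-21-5p on control array 3 was marked as not good by the scanner software, and with marked spots left out the log2 fold change was 0.07.

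miR-21-3p was dim and lower with telmisartan. Its normalized intensity ran from 10.8 to 24.9 in the controls (median 13.3) and from 7.44 to 12.2 with telmisartan (median 9.52). Of the 8 telmisartan arrays, 5 lay below every control array, and 0 lay above the control median, so the groups overlapped at telmisartan arrays 1, 4 and 7. Of all 382 probes, 14 had groups with no overlap (3.66%). The log2 level was 3.90 ± 0.46 in the controls and 3.28 ± 0.25 after telmisartan (SD, n = 8 arrays each), which put the treated cells at 0.647 of the control level, with a 95% interval of 0.499 to 0.838 (log2 fold change -0.63, standard error 0.18, adjusted p = 0.0222, limma). Over all 382 probes, 65 passed this threshold of an adjusted p under 0.05 (17%), 37 of them higher (9.69%) and 28 lower (7.33%). The study listed miR-21-3p from these same arrays, so its direction here is not independent evidence. By signal the probe ranked 229th to 331st of 382 in the controls and 317th to 366th with telmisartan.

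**Figure D1:**
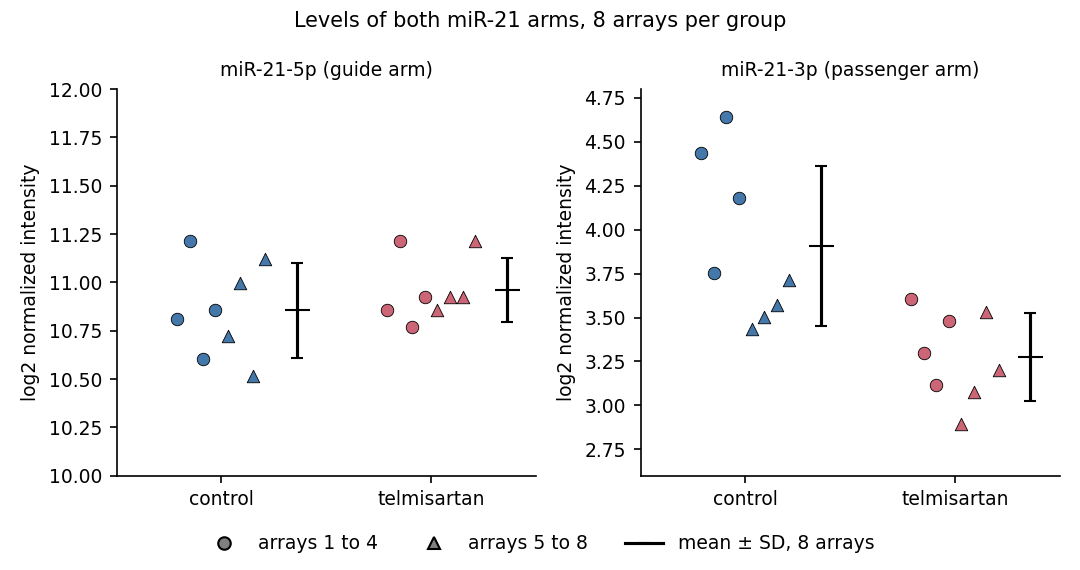
Log2 normalized intensity of miR-21-5p (left) and miR-21-3p (right) on each control and telmisartan array. Circles are arrays 1 to 4, triangles are arrays 5 to 8, and bars are the mean ± SD of 8 arrays, and the vertical axes do not start at 0 and differ between the panels. The guide levels overlap (10.86 against 10.96), whereas 5 of 8 telmisartan arrays lie below every control for the passenger (3.90 against 3.28).

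On normalized values the passenger means were lower with telmisartan in both sets of array numbers, and the controls of the sets lay apart. Controls 1 to 4 had normalized intensities of 21.6, 13.5, 24.9 and 18.2, and telmisartan arrays 1 to 4 had 12.2, 9.83, 8.66 and 11.2. These did not overlap, and the treated arrays were at 0.544 of control (log2 difference -0.88, two-sided exact permutation p = 0.0286, the smallest that 4 against 4 arrays allow). Controls 5 to 8 had 10.8, 11.4, 11.9 and 13.1, and telmisartan arrays 5 to 8 had 7.44, 8.43, 11.6 and 9.22. Here 3 of 4 telmisartan arrays lay below every control, at 0.769 of control (log2 difference -0.38, two-sided exact permutation p = 0.0857). Over all 16 arrays the two-sided exact permutation p was 0.00249. Adjusted over the 12 exact tests made on the arms and their ratio, these p-values were 0.0686, 0.129 and 0.0193. The effect in arrays 5 to 8 minus that in arrays 1 to 4 was 0.50 on the log2 scale, which did not pass (adjusted p = 0.117, limma). For miR-21-5p that difference was 0.07 (adjusted p = 0.808, limma). On background-subtracted intensities the controls of the sets did not lie apart in this way. There the log2 level of miR-21-3p was 3.71 ± 0.55 in controls 1 to 4 and 3.24 ± 0.21 in telmisartan arrays 1 to 4, and 3.86 ± 0.22 in controls 5 to 8 and 3.37 ± 0.17 in telmisartan arrays 5 to 8 (SD, n = 4 each), so the means differed by similar amounts in both sets.

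The passenger was measured close to the background of the arrays. Its raw intensity was 26.5 to 54.1 in the controls (median 37.5) and 29.1 to 42.2 with telmisartan (median 33.3), which was 1.38 to 1.83 times and 1.23 to 1.60 times the background of the same array. The guide was 83.2 times background at the control median and 88.6 times at the telmisartan median. The passenger spot lay 5.95 to 21.5 SD of the blank spots above background in the controls and 3.62 to 17.3 SD with telmisartan, so it passed the detection level on every array. Because the background makes up most of its raw signal, the size of its change moved with the treatment of the background. The log2 fold change was -0.22 on raw intensities (adjusted p = 0.0372, limma) and -0.13 with the normexp correction and an offset of 50 (adjusted p = 0.0459, limma), against -0.63 after subtraction.

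**Figure D2:**
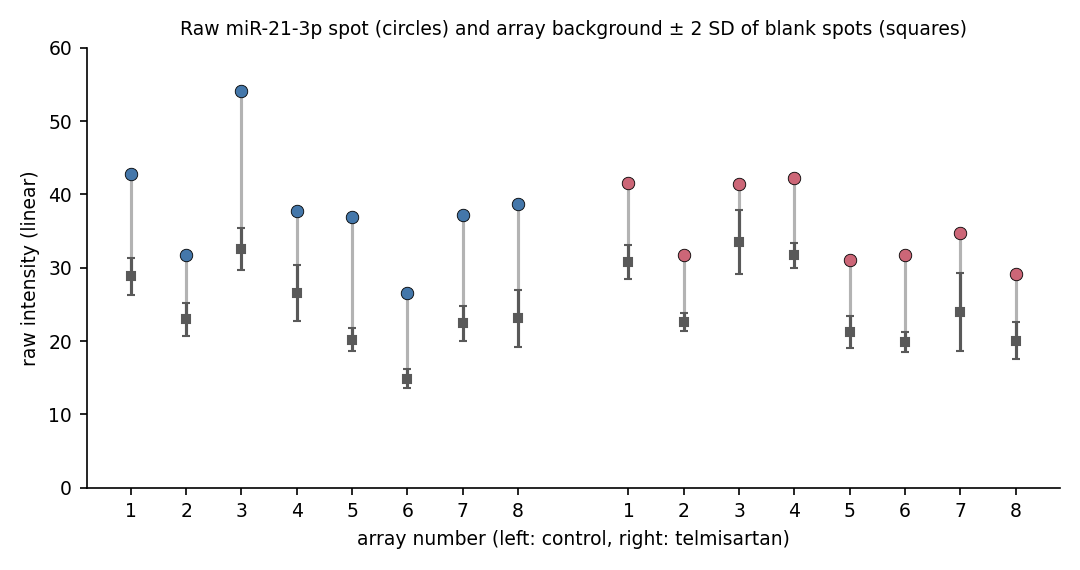
Raw intensity of the miR-21-3p spot (circles, linear scale from 0) and background of the same array (squares, with bars of 2 SD of the blank spots) for control arrays 1 to 8 on the left and telmisartan arrays 1 to 8 on the right. Every circle lies above the bar, at 1.38 to 1.83 times background in the controls and 1.23 to 1.60 times with telmisartan.

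The ratio of the arms on 1 array was examined next. On background-subtracted intensities any factor that scales a whole array cancels in it, while its level also holds the unequal binding and labelling of 2 probes and is not a ratio of molecules. On the authors' normalized values the 5p signal was 62.3 to 180.0 times the 3p signal in the controls (median 139.9) and 153 to 258 times with telmisartan (median 216). On the log2 scale the ratio was 6.95 ± 0.57 in the controls and 7.69 ± 0.29 with telmisartan (mean ± SD, 8 arrays each), a 1.66-fold rise with a 95% interval of 1.22 to 2.26 (log2 difference 0.74, standard error 0.21, adjusted p = 0.0136 over 33 hairpins, limma). All 8 telmisartan arrays were above the control median and 5 were above every control (two-sided exact permutation p = 0.00482, 0.0193 adjusted over the 12 tests). The ratio holds the same 3p values as the fall of the passenger and is not a second piece of evidence for it.

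Background-subtracted intensities without any normalization gave nearly the same mean difference with a different spread. The ratio was 78.4 to 247 in the controls (median 118) and 181 to 248 with telmisartan (median 197). Only 1 of 8 telmisartan arrays lay above every control, since control array 2 had a ratio of 247, yet all 8 were above the control median. The log2 ratio was 6.96 ± 0.56 in the controls and 7.69 ± 0.16 with telmisartan (mean ± SD, 8 arrays each), a 1.66-fold difference with a 95% interval of 1.25 to 2.20 (log2 difference 0.73, standard error 0.20, adjusted p = 0.0120 over 33 hairpins, limma). The two-sided exact permutation p was 0.00404 (0.0193 adjusted over the 12 tests).

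Within the sets of array numbers the 2 scales ordered the sets differently. On normalized values, controls 1 to 4 had ratios of 82.9, 176, 62.3 and 102 and telmisartan arrays 1 to 4 had 153, 242, 202 and 174, a 1.93-fold difference (two-sided exact permutation p = 0.0857). Controls 5 to 8 had 156, 180.0, 123 and 169.7 and telmisartan arrays 5 to 8 had 249, 231, 168 and 258, a 1.43-fold difference (two-sided exact permutation p = 0.0857). In both sets the treated arrays were mostly higher but overlapped the controls. On background-subtracted intensities, controls 1 to 4 had ratios of 114, 247, 81.2 and 181 and telmisartan arrays 1 to 4 had 192, 189.7, 199.8 and 194, a 1.36-fold difference (two-sided exact permutation p = 0.314). Controls 5 to 8 had 106, 122, 78.4 and 137 and telmisartan arrays 5 to 8 had 248, 181, 219.7 and 233, a 2.02-fold difference without overlap (two-sided exact permutation p = 0.0286). Adjusted over the 12 tests, these 4 p-values were 0.129, 0.129, 0.389 and 0.0686. The effect in arrays 5 to 8 minus that in arrays 1 to 4 was -0.43 on the log2 scale for normalized values (adjusted p = 0.391) and 0.57 for background-subtracted intensities (adjusted p = 0.380, limma), so neither order of the sets passed a test.

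**Figure D3:**
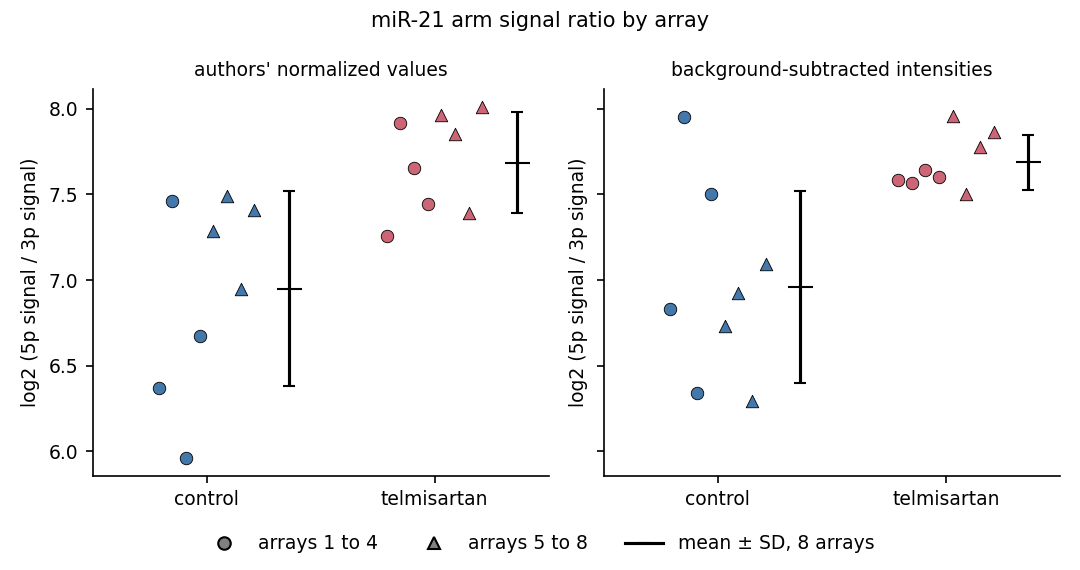
Log2 ratio of the miR-21-5p signal to the miR-21-3p signal on each array, from the authors' normalized values (left) and from background-subtracted intensities (right). Circles are arrays 1 to 4, triangles are arrays 5 to 8, and bars are the mean ± SD of 8 arrays, and the vertical axis does not start at 0. The treated mean is 0.74 higher on the left and 0.73 higher on the right, and 1 control array lies among the highest treated arrays on the right.

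miR-21 was compared with the other hairpins whose arms both had normalized values on all arrays, 33 in all. Its control signal ratio was the most unequal of the 33 in either direction, within the limits on comparing probes given above. The arm ratio moved at an adjusted p under 0.05 for 8 of 33 hairpins (24.2%), 5 of them toward the 5p arm (15.2%) and 3 toward the 3p arm (9.09%), and the median log2 change was 0.11. On background-subtracted intensities 10 of 33 passed (30.3%), 7 of them toward the 5p arm (21.2%). miR-21 ranked 6th by the size of its rise on normalized values and 4th on background-subtracted intensities. A shift of the arm ratio was therefore not particular to miR-21.

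The hairpins with the largest changes moved by similar amounts in both directions. The 3 largest rises among those past the threshold were those of miR-125a at 1.75-fold (adjusted p = 0.0001), miR-181a at 1.71-fold (adjusted p = 0.0427) and miR-6765 at 1.70-fold (adjusted p = 0.0079, limma). miR-125a was the only 1 of the 33 whose groups did not overlap (3.03%). miR-181a passed in 7 of the 16 fits that left out an array and not without control array 1, 2, 3 or 4 or telmisartan array 3, 5, 6, 7 or 8 (adjusted p up to 0.0962, limma). The 3 largest falls were those of miR-361 to 0.545 (adjusted p = 0.0017), miR-455 to 0.637 (adjusted p = 0.0294) and miR-18a, of an oncogenic miRNA cluster, to 0.657 of the control ratio (adjusted p = 0.0017, limma). Without telmisartan array 1, 3 or 5 miR-455 did not pass (adjusted p = 0.0524, 0.0679 and 0.0737, limma). On raw intensities with quantile normalization the ratio changes of miR-361 and miR-455 were -0.30 and -0.31 on the log2 scale. With normexp they were -0.18 and -0.19, and neither hairpin passed in either setting (adjusted p 0.0930 to 0.321, limma). Within arrays 5 to 8 alone miR-125a was the only 1 of these 6 that passed.

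Of the miR-21 arms the dimmer fell, and the dimmer arms of the 33 hairpins, miR-21-3p among them, moved in both directions. For each hairpin the arm with the lower mean signal was taken, which was the 3p arm in 22 and the 5p arm in 11. Of these 33 arms 6 rose and 3 fell, with a median log2 fold change of -0.09, and of the 33 brighter arms 1 rose and 4 fell, with a median of -0.01. Over all 382 probes 9.69% rose and 7.33% fell, and the median was -0.01.

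**Figure D4:**
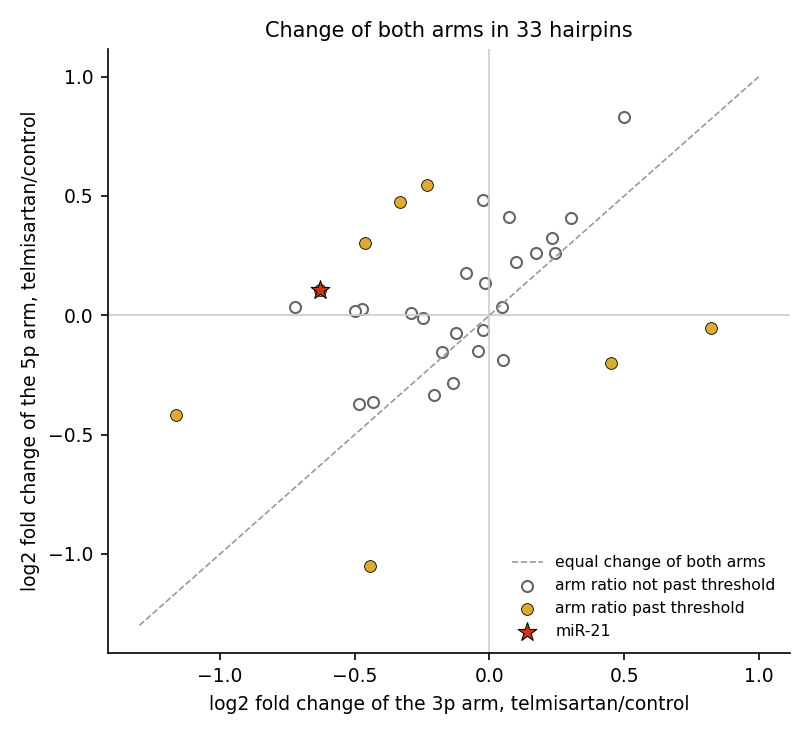
Log2 fold change of the 5p arm against that of the 3p arm, telmisartan over control, for 33 hairpins on the authors' normalized values. Filled points have an arm ratio change at an adjusted p under 0.05, the dashed line marks equal change of both arms, and the star is miR-21, at -0.63 for the 3p arm and 0.11 for the 5p arm.

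miRNAs with a link to miR-21 by seed, place or regulation were examined as well. miR-590-5p, which shares the seed shown above, was detected on 6 control and 4 telmisartan arrays, with a median background-subtracted intensity of 3.93 where detected, and was not tested. The 4 nearest miRNA genes on each side of MIR21 on chromosome 17 gave 10 probes on the array, of which 1 was detected on all arrays. That probe, miR-301a-3p of the miR-130 family, was at 0.422 of its control level (log2 level 4.81 ± 1.06 in the controls and 3.57 ± 0.57 with telmisartan, mean ± SD, 8 arrays each, adjusted p = 0.0401, limma). It passed in 6 of the 16 fits that left out an array and not without control array 1, 2, 3 or 4 or telmisartan array 2, 3, 5, 6, 7 or 8 (adjusted p up to 0.0849, limma), nor in the exact Mann-Whitney test (adjusted p = 0.134), with normexp (log2 fold change -0.38, adjusted p = 0.0549) or within arrays 5 to 8 alone (adjusted p = 0.0626, limma). Its neighbour miR-454-3p was detected on 15 arrays and was not tested, and 2 of the 10 probes were detected on none.

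A list of 8 miRNAs whose genes are known to respond to NF-κB, AP-1 or STAT3, the factors that also act on MIR21, had 5 members with normalized values. Of these 2 rose and 0 fell, beside 9.69% and 7.33% over all probes, and the median log2 fold change was 0.19. miR-222-3p, which represses the cell cycle inhibitor p27, rose 1.57-fold (adjusted p = 0.00222, limma). miR-181b-5p, which represses the NF-κB inhibitor CYLD, rose 1.27-fold (adjusted p = 0.0130, limma). With the arrays scaled to a common median in place of quantiles, neither passed (adjusted p = 0.0559 and 0.310, limma). miR-221-3p was at 1.14-fold (adjusted p = 0.177), miR-31-5p at 1.01-fold (adjusted p = 0.941) and miR-9-5p at 0.794 of control (adjusted p = 0.687, limma). miR-155-5p, miR-146a-5p and miR-146b-5p, all 3 tied to inflammatory signaling, were detected on 3, 9 and 14 arrays and were not tested.

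Neither arm was among the 3 profiles most like that of the other over the arrays. Likeness was the root mean square difference between log2 profiles over the 16 arrays, each centered on its own mean, so it holds the treatment and the array sets together. The profiles most like that of miR-21-5p were those of miR-31-5p at 0.19, miR-151a-3p at 0.20 and miR-7975 at 0.20, and the last had the same value on every array, so a small difference there says only that the guide varied little. miR-21-3p came 322nd for the guide, at 0.56, and the guide came 183rd for miR-21-3p at the same distance. The profiles most like that of miR-21-3p were those of miR-106b-3p and miR-200a-5p at 0.21 each and miR-7114-5p at 0.21. Of these, miR-7114-5p fell (log2 fold change -0.52, adjusted p = 0.0264, limma), whereas miR-106b-3p (-0.43, adjusted p = 0.0812, limma) and miR-200a-5p (-0.42, adjusted p = 0.197, limma) did not pass. With the replicate number as a block both did (adjusted p = 0.0250 and 0.0276, limma). Without control array 5 miR-106b-3p also passed (adjusted p = 0.0453), and without control array 1 or 3 or telmisartan array 5 miR-7114-5p did not (adjusted p = 0.0564, 0.0527 and 0.0524, limma).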

How the data were processed

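Total RNA of OE19 cells was hybridized to 3D-Gene human miRNA chips (Toray) with 1 color. After scanning by the authors, each deposited spot intensity exists as a raw value and as a value minus 1 background per array, which is empty below the detection level. The background matched the mean of the 320 blank spots after 5% had been removed at each end. The authors also deposited linear normalized intensity values of 382 probes (median 37.7 per array). Quantile normalization of the subtracted intensities rebuilt them to a relative difference of 4.88e-10. Columns of means, CVs and a global normalization in the array files were not used. No 2 arrays held identical values.

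The lmFit and eBayes functions of limma 3.58.1 (R 4.3.3) were run on log2 values of all 16 arrays, as telmisartan minus control, with no pseudocount and Benjamini-Hochberg adjustment over 382 probes, or over 33 hairpins for the arm ratio, and the threshold was an adjusted p under 0.05. A hairpin entered where single-name probes for both of its arms had values on all arrays. Exact permutation tests were two-sided (scipy 1.17.1).

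The named miRNAs were both arms, seed partners, 3 lists, cell type markers, the 3 most alike profiles per arm and the 3 largest rises and falls of the arm ratio. Members and lists were chosen with earlier results of these data known. From these same arrays the study also listed miR-200a-3p, miR-141-3p, miR-222-3p, miR-301a-3p, miR-361-3p and miR-18a-5p. The directions of their changes here are therefore not independent evidence either. Groups share array numbers 1 to 8. Deviations from the group means correlated for all 8 same-numbered pairs (r from 0.149 to 0.864 across probes, which are not independent replicates). Only 2 of 8 control arrays and 4 of 8 telmisartan arrays correlated best with the array of their own number. Every best match lay within the same set of array numbers, so r cannot separate pairing by number from the sets. Separate fits with the number and with the set as a block were made. Their effects and those of other background corrections, normalizations, filters, tests and arrays are given in the closing section. The fits were tested on simulated data. Precision is limited by the number of arrays. The label dye is named in 2 ways in the labels. The xenograft arrays were not analysed here.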

Additional observations from a re-analysis of the deposited data

How the results depend on the processing

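The direction of all 3 miR-21 results held under every alternative run and with each array left out. The fits within a set of array numbers used the authors' normalized values only. On background-subtracted intensities the mean log2 level of the guide was 10.87 in controls 1 to 4 and 10.84 in telmisartan arrays 1 to 4. miR-21-5p never passed (log2 fold change 0.06 to 0.25, and 0.06 to 0.16 with an array left out). Leaving out an array, miR-21-3p gave -0.70 to -0.52 (adjusted p 0.0121 to 0.0457), the arm ratio 0.59 to 0.81 (adjusted p 0.00958 to 0.0337), and the counts 51 to 70 probes and 6 to 11 hairpins. miR-21-3p no longer passed without scaling (-0.48, adjusted p = 0.0876), when quantiles were taken over all probes that an array detected (-0.37, adjusted p = 0.999) or when arrays 5 to 8 stood alone (-0.38, adjusted p = 0.0837, limma). The first 2 settings put the median of all probes at 0.18 and 0.24, and relative to it miR-21-3p was at -0.66 and -0.61 and miR-21-5p at 0.07 and 0.01. The arm ratio no longer passed with those quantiles (0.62, adjusted p = 0.538), exact Mann-Whitney tests (0.74, adjusted p = 0.0696) or arrays 5 to 8 alone (0.52, adjusted p = 0.0761). Nor did it pass with normexp (0.23, adjusted p = 0.190) or raw intensities (0.32, adjusted p = 0.0928), both quantile normalized over the 382 probes. The cause was not tested. Leaving out probes below the 25th percentile removed miR-21-3p, so that setting gave no value for it or the ratio.

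Of 65 probes past the threshold, median scaling gave 31, no scaling 30 and arrays 1 to 4 alone 144. Quantiles over the detected probes gave 0 of 646 with limma (7 at an unadjusted p under 0.05), while Mann-Whitney tests on the authors' values gave 58. Of 8 hairpins, quantiles over the detected probes gave 3 of 100, raw intensities 5 (4 toward the 5p arm), normexp 7 (6 toward it), the filter on dim probes 4 of 13, Mann-Whitney tests 5, arrays 1 to 4 alone 13 and arrays 5 to 8 alone 2. With the replicate number as a block, miR-21-3p had an adjusted p of 0.0143 and the ratio of 0.00222, and 75 probes and 11 hairpins passed. The block changed the calls of miR-106b-3p and miR-200a-5p and no other call among the listed miRNAs, alike profiles and hairpins. The cell type markers were not run with it. miR-31-5p turned within arrays 1 to 4 (-0.091) and with an array left out ranged from -0.024 to 0.046, and miR-9-5p turned with quantiles over the detected probes (0.12) and within arrays 5 to 8 (0.25). The blank median as background and marked spots left out were added after seeing the data and changed no call on miR-21.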

Other observations

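Within the controls, the level of miR-21-3p on the authors' normalized scale differed between the sets of array numbers, with a log2 mean of 4.25 ± 0.38 on arrays 1 to 4 and 3.56 ± 0.12 on arrays 5 to 8 (SD, n = 4 each), and with telmisartan the means were 3.37 ± 0.21 and 3.18 ± 0.27 (SD, n = 4 each). The guide held 10.87 ± 0.26 and 10.84 ± 0.27 in the same controls (SD, n = 4 each). On background-subtracted intensities the order was not the same, with 3.71 ± 0.55 and 3.86 ± 0.22 for miR-21-3p and 10.87 ± 0.21 and 10.62 ± 0.38 for the guide in these control sets (SD, n = 4 each). Detected probes numbered 454 to 947 on control arrays 1 to 4 and 661 to 1621 on control arrays 5 to 8, and the background was 27.7 ± 4.01 and 20.1 ± 3.73 (SD, n = 4 each). The part of these differences in the passenger level was not tested.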
